A study of Mus musculus with 4 samples.

Results

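The mammalian circadian clock genes Clock, Arntl, Per1, Per2, Per3, Cry1, Cry2, Dbp, Tef and Hlf were followed in corticotropes and melanotropes, the pituitary cell types that make pro-opiomelanocortin. The genes were picked by symbol, with earlier results of these data known. All 10 were present among the 24063 genes of the deposited table, as 16 of its 33072 RefSeq transcripts. RNA-seq had been run on GFP-positive cells sorted from the dissected pituitary lobes of mice of a POMC-EGFP line, strain C57B6, with 2 libraries of corticotropes and 2 of melanotropes. All 4 libraries thus carry the same reporter allele, and a sorted cell is one in which the Pomc reporter is active. The labels name no treatment, age, sex or time of day, nor do they tie replicates to separate mice or sorts, so p-values measure only the spread between these libraries, which may be technical.

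The clock is a loop of transcription and feedback that runs in most cells of the body. CLOCK and ARNTL (also called BMAL1) bind E-boxes as a pair and switch on the Per and Cry genes, whose proteins return to the nucleus and hold the pair back. DBP, TEF and HLF, the PAR bZIP factors, are driven by the same loop and act on D-boxes in output genes and in some clock genes, where NFIL3 competes with them. REV-ERB (Nr1d1, Nr1d2) and ROR receptors act on Arntl through ROR elements and form a second loop. In most tissues the RNA of Dbp, Per3 and the REV-ERB genes peaks at another phase of the day than that of Arntl, and Per1 is also induced acutely by cyclic AMP and by glucocorticoids.

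The start regions of the members are described by their sequence alone, and a tie of motifs to the differences between the cell types was not tested. RefSeq windows on GRCm38.p6, from 250 bases before to 50 after a start, were available for 9 of the 10 genes (14 windows). They were searched on both strands for the E-box CACGTG, the E-prime box CACGTT, the D-boxes TTATGTAA and TTACGTAA, the ROR element TAGGTCA and the cyclic AMP element TGACGTCA. The sequences run 5′ to 3′ on the gene's strand, stop before the start, and have the motifs in capitals, where AACGTG is the E-prime box read on the other strand. No motif found overlapped another. Per3 had 2 D-boxes, beginning 205 and 158 bases before its start, a motif held by 1.06% of the 32851 windows of all genes (chr4:151044796-151044890, minus strand).
Per3: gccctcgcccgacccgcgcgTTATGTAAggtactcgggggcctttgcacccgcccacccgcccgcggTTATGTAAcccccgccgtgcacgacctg
Cry1 had an E-box 60 bases and an E-prime box 79 bases before its start (chr10:85185089-85185153, minus strand), and these motifs were in 7.15% and 4.68% of all windows.
Cry1: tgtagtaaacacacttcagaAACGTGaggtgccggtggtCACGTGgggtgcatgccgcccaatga
Per1 had an E-box 166 bases before its upstream start (chr11:69098763-69098808, plus strand).
Per1: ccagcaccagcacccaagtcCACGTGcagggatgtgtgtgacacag
Tef had an E-box 127 bases before its upstream start (chr15:81802526-81802571, plus strand) and another 138 bases before its downstream start (chr15:81811256-81811301, plus strand).
Tef upstream start: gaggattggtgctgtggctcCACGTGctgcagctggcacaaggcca
Tef downstream start: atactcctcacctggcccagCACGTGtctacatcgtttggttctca
Hlf had a cyclic AMP element 9 bases before its start (chr11:90390918-90390946, minus strand), a motif in 1.79% of all windows.
Hlf: tcggcgcgcggtgcgggcccTGACGTCAc
Cry2 held an E-prime box 166 bases before its start, 1 Arntl window held a ROR element after its start (in 2.61% of all windows), and the windows of Clock and Dbp held none of these letters. A match describes the sequence only, since binding was not measured.

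The deposited values are called FPKM, read numbers scaled to transcript length. Their sum over all transcripts was nearly the same in each library, 729482 to 729485, so they share 1 fixed total. Pomc transcripts made up 27.8% and 27.2% of all FPKM in corticotropes and 49.7% and 50.9% in melanotropes, which lowers every other deposited value of a melanotrope library. Values below were therefore rescaled between libraries, and are called deposited where they were not. The median log2 fold change of all genes, melanotrope over corticotrope, was 0.01 after rescaling and -0.42 on the deposited scale. The sorted cells bore their labels' markers, with Pax7 at 9.50 and 7.90 in corticotropes and 57.9 and 55.4 FPKM in melanotropes, and Crhr1 at 126 and 137 against 8.24 and 6.96 FPKM. Markers of other hormone lineages were also lower in melanotropes in 10 of 10 genes tested (17.6% of all genes were). Several of them, such as Tshb and Pou1f1, reached 1 FPKM, the expression filter, in corticotropes alone. These could not come out higher, so the count is no independent support. The summed level of the lineage markers was 5588 to 5820 FPKM against 14.04 to 62.1, and their part in the clock gene differences was not tested. Of posterior lobe and glia markers 4 of 5 tested were higher in melanotropes (19.5% of all genes were) and 1 was lower (17.6%). Among the higher were Scn7a (0.279 against 14.5 FPKM on average) and Slc1a3 (1.81 against 12.6). Scn7a and Rax reached 1 FPKM in melanotropes alone and could not come out lower. The summed level of the posterior lobe and glia markers was 23.8 to 25.8 against 48.9 to 52.7 FPKM, with Gfap, S100b and Aqp4 under 1 FPKM in all 4 libraries. Of 4 stem and folliculostellate cell markers Sox2, Sox9 and Cd9 were higher and Aldh1a2 lower (19.5% and 17.6% of all genes were). Sox9 reached 1 FPKM in melanotropes alone. The summed level of the 4 was 72.8 to 85.9 against 130.5 to 135.9 FPKM. Of 3 endothelium markers tested 2 were lower and 0 higher (17.6% and 19.5% of all genes were). Of 4 blood and immune cell markers tested 2 were lower and 1 higher (17.6% and 19.5%). Emcn and Hba-a1 reached 1 FPKM in corticotropes alone and Csf1r in melanotropes alone, so these calls are no independent support. The summed levels were 5.95 to 8.12 against 2.56 to 3.51 FPKM and 19.6 to 25.4 against 5.09 to 7.20 FPKM. The part of these cell types in the results was not tested either. Between 1384 and 39589 reads were implied behind a member's value in a library.

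Melanotropes had less Per3, Dbp and Tef RNA than corticotropes and more Hlf, and these 4 differences held on both scales. Arntl, Per1 and Cry1 were modestly higher and Cry2 modestly lower after rescaling, Per2 did not pass the test, and Clock did not pass it and had nearly the same level in both. All 10 genes passed the expression filter and were tested. Higher in melanotropes were 4 of the 10, where 19.5% of the 13036 genes tested were, and lower were 4 of the 10, where 17.6% of all genes were (limma, adjusted p under 0.05). The corticotrope and melanotrope libraries did not overlap for 9 of the 10, against 71.1% of all genes. At 2-fold or more on the scale of log2(FPKM + 1), 2 were lower, Per3 and Dbp, where 4.66% of all genes were. Of the members not called, Per2 had an unadjusted p under 0.05 and Clock did not (limma). The share of all genes at that cut was not computed. On the deposited scale the counts were 1 higher and 5 lower, where 939 of all genes were higher and 8787 lower, against 2545 and 2294 after rescaling. With no expression filter Arntl, Per1, Cry1 and Cry2 lost their calls, which left 1 higher and 3 lower, where 1579 and 1743 of 24063 genes were. In bulk libraries fewer cells with a transcript and less of it per cell cannot be told apart.

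**Figure D1:**
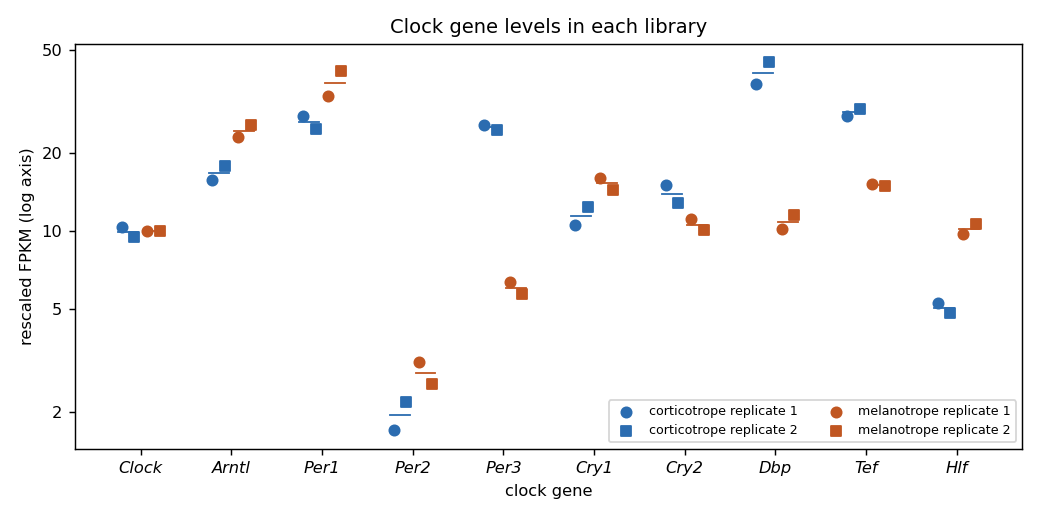
Rescaled FPKM (log axis) of the 10 clock genes in each of the 4 libraries, with corticotropes in blue, melanotropes in orange and a line at the mean of each pair. Per3, Dbp and Tef lie lower and Hlf higher in both melanotrope libraries, while the Clock values of the 2 cell types overlap.

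Of the activator pair, Clock did not pass the test and Arntl rose in melanotropes. Clock (chromosome 5, 76209868 to 76304548, minus strand), the subunit with acetyltransferase activity, was at 10.3 and 9.46 rescaled FPKM in corticotropes and 10.02 and 9.98 in melanotropes. The groups overlapped, and the log2 difference of 0.01 had a 95% interval of -0.18 to 0.21 (limma adjusted p = 0.898). Arntl (chromosome 7, 113207465 to 113314126, plus strand), its partner, was at 15.8 and 17.8 against 23.0 and 25.7 FPKM. The groups did not overlap, melanotropes being 1.45 times as high on average, with a log2 fold change of 0.51 (SE 0.10, limma adjusted p = 0.00949). On the deposited scale Arntl was nearly level, at 19.2 and 20.7 against 20.02 and 20.95 FPKM, with a log2 fold change of 0.04 and an adjusted p of 0.678 (limma; range over 16 alternatives 5.50e-05 to 0.678). Clock was lower there, close to the median gene, with a log2 fold change of -0.44 (adjusted p = 0.00942, limma; range 0.00942 to 1).

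The 3 period genes, whose proteins form the repressor complex with the cryptochromes, did not move together. Per3 (chromosome 4, 151003655 to 151044665, minus strand), with the 2 D-boxes shown above, was at 25.6 and 24.6 rescaled FPKM in corticotropes and 6.36 and 5.69 in melanotropes. It was 4.17 times as high in corticotropes, the groups lay far apart, and the log2 fold change was -1.89 (SE 0.08, limma adjusted p = 7.13e-05). Per3 was called lower under each of the 16 alternatives run, with log2 fold changes of -2.34 to -1.45. Its 3 transcripts share most of their exons and differed by at most 0.01 in log2 difference, so they are no independent evidence.

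Per1 (chromosome 11, 69098956 to 69109957, plus strand), the period gene that responds most directly to stimuli, was at 27.7 and 24.7 FPKM in corticotropes and 33.2 and 41.3 in melanotropes. The melanotrope libraries lay above the others, and the log2 fold change was 0.49 (SE 0.12, limma adjusted p = 0.0266). Deposited values were 33.7 and 28.65 against 28.9 and 33.7 FPKM, where the groups overlapped and the log2 fold change was 0.00 (adjusted p = 0.971). The call was also lost without corticotrope replicate 2 (0.102), without melanotrope replicate 2 (0.0884) and with no expression filter (0.159; range 0.00138 to 0.971). Per2 (chromosome 1, 91415982 to 91459328, minus strand), the least abundant member, was at 1.70 and 2.20 against 3.13 and 2.56 FPKM. It was higher in both melanotrope libraries with a log2 difference of 0.38 (95% interval 0.07 to 0.70), but missed the threshold at a limma adjusted p of 0.0619 (0.0514 with scaling factors from all genes), and passed it without corticotrope replicate 2 (0.0475; range 0.0125 to 0.805).

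The cryptochromes, flavoprotein repressors that bind the CLOCK and ARNTL pair, differed in opposite directions after rescaling. Cry1 (chromosome 10, 85131700 to 85185054, minus strand) was at 10.5 and 12.4 FPKM in corticotropes and 16.1 and 14.5 in melanotropes, a log2 fold change of 0.39 (SE 0.10, limma adjusted p = 0.0321). Cry2 (chromosome 2, 92403647 to 92434069, minus strand) was at 15.05 and 12.8 against 11.1 and 10.05 FPKM, a log2 fold change of -0.36 (SE 0.10, limma adjusted p = 0.0383). Neither gene's groups overlapped, and Cry2 was the more abundant per length in both corticotrope libraries and Cry1 in both melanotrope libraries. Each call was lost when some single libraries were left out, which leaves 3 libraries and fewer calls over all genes. Cry1 was not called without corticotrope replicate 1 (adjusted p = 0.125, log2 difference 0.28) or melanotrope replicate 1 (0.136, 0.32), and on the deposited scale it turned to a log2 difference of -0.07 (0.566; range 0.00329 to 0.566). Cry2 was not called without corticotrope replicate 1 (0.146, log2 difference -0.26), melanotrope replicate 1 (0.0588, -0.43) or melanotrope replicate 2 (0.158, -0.30; range 0.00108 to 0.158), nor with equal sums of all transcripts other than Pomc (0.101). Exons of D930015M05Rik on the other strand share 7.40% of the length of Cry2, and the use of strand in counting is not known from these sources.

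The PAR bZIP factors, the output arm that reads the loop through D-boxes, split into a lower pair and a higher gene. Dbp (chromosome 7, 45705247 to 45710203, plus strand) was the most abundant member in corticotropes, at 37.0 and 44.7 rescaled FPKM, and was at 10.2 and 11.5 in melanotropes. Both melanotrope libraries lay below both others, the corticotrope mean was 3.75 times as high, and the log2 fold change was -1.81 (SE 0.11, limma adjusted p = 2.16e-04). Tef (chromosome 15, 81811414 to 81826863, plus strand) was at 27.8 and 29.6 against 15.2 and 14.9 FPKM, the groups were apart, and the log2 fold change was -0.89 (SE 0.07, limma adjusted p = 5.11e-04). The Tef transcripts from the 2 starts shown above gave log2 differences of -0.89 each. They end at the same base and had nearly the same FPKM, so they are no independent evidence on the 2 starts. Hlf (chromosome 11, 90336535 to 90390917, minus strand) was at 5.29 and 4.84 against 9.77 and 10.7 FPKM, 2.02 times as high in melanotropes, a log2 fold change of 0.89 (SE 0.09, limma adjusted p = 9.28e-04). Dbp, Tef and Hlf kept direction and call under each of the 16 alternatives, with log2 fold changes of -2.28 to -1.53, -1.36 to -0.75 and 0.45 to 1.00. On the deposited scale Hlf was the sole member called higher, at 6.43 and 5.62 against 8.50 and 8.69 FPKM.

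The last exons of Dbp share 539 of its 1672 bases (32.2%) with exons of Sphk2, a sphingosine kinase gene on the other strand, so without strand some reads could belong to either. The Sphk2 value was also lower in melanotropes, at 18.3 and 20.9 against 12.2 and 13.4 FPKM (log2 fold change -0.58, limma adjusted p = 0.00596). Without strand that value could hold Dbp reads from the shared bases, so a difference of Sphk2 cannot be told apart from that of Dbp. When the Sphk2 level times that share was taken from Dbp, an alternative chosen after the values were seen, Dbp stood at 31.1 and 38.0 against 6.29 and 7.23 FPKM. The log2 fold change was then -2.19 (limma adjusted p = 1.31e-04, range 4.72e-09 to 0.0228). If strand was not used in counting, this step could also take away reads of Dbp.

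**Figure D2:**
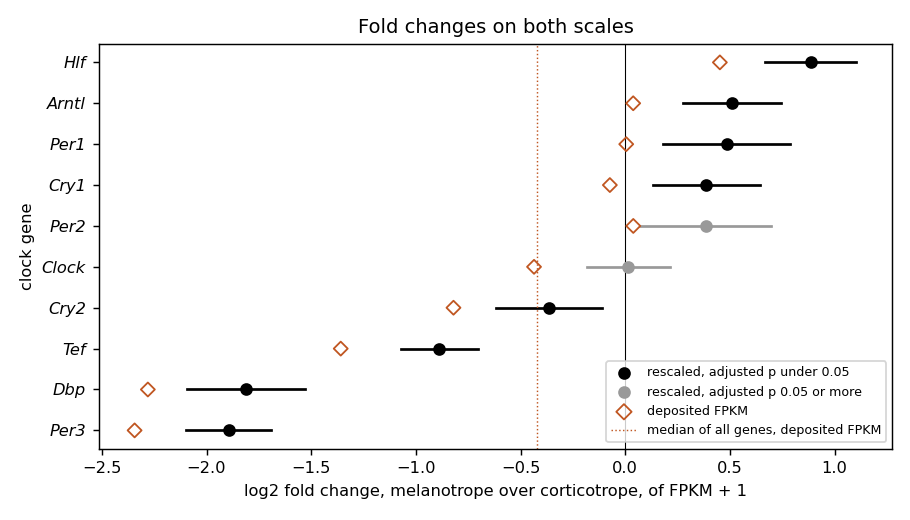
Log2 fold change of FPKM + 1, melanotrope over corticotrope, for each clock gene: filled points with 95% intervals after rescaling (black where the adjusted p was under 0.05), and open diamonds on the deposited scale, whose median gene lies at the dotted line (-0.42). Per3, Dbp and Tef lie left of 0 and Hlf right of 0 on both scales, whereas Arntl, Per1 and Per2 lie close to 0 on the deposited scale.

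The authors' deposited table called fewer of the genes. In it Per3 had a log2 fold change of -2.002 (FDR 1.38e-04, longest transcript) and Dbp one of -1.91 (FDR 1.24e-06). Tef was at -0.93 (FDR 0.177) and Hlf at 1.04 (FDR 1) in the authors' deposited table. There 2 of the 10 genes had an FDR under 0.05. The share of all genes with such an FDR was not computed, so this count is no result about the members. Per2, at 0.62 (FDR 1), had the second highest log2 fold change of the 10 in the authors' deposited table.

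Ratios of FPKM within a library do not depend on the scaling between libraries, and are given as a description, since 2 libraries against 2 allow no small exact p. Dbp over Arntl, an output against the activator that drives it, was 2.34 and 2.51 in corticotropes and 0.444 and 0.449 in melanotropes. Dbp over Nfil3, the D-box activator against its repressor, was 1.80 and 1.82 against 0.517 and 0.549. Tef over Hlf was 5.25 and 6.12 against 1.56 and 1.40. In these 3 ratios the libraries of the 2 cell types lay far apart. Cry1 over Cry2 was 0.6997 and 0.966 against 1.44 and 1.44, also without overlap. Per1 over Arntl (1.76 and 1.38 against 1.44 and 1.61) and Per1 over Per2 (16.3 and 11.2 against 10.6 and 16.1) overlapped between the cell types. Another pair of ratios was chosen after the values were seen. Per1 over Per3 was 1.08 and 1.00 in corticotropes against 5.22 and 7.25 in melanotropes, and Dbp over Hlf was 6.98 and 9.23 against 1.05 and 1.08.

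**Figure D3:**
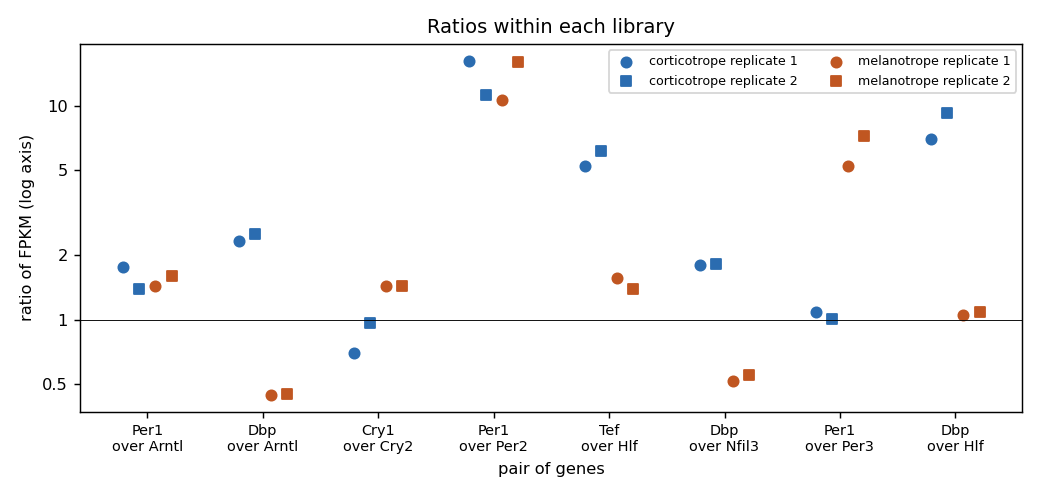
Ratios of FPKM between pairs of genes within each library (log axis), with corticotropes in blue and melanotropes in orange. Dbp over Arntl is above 2 in both corticotrope libraries and below 0.5 in both melanotrope libraries, while Per1 over Arntl and Per1 over Per2 overlap between the cell types.

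The other 40 genes of a wider clock list were lower more often than higher in melanotropes. Of these 40, all tested, 5 rose (19.5% of all genes did) and 12 fell (17.6% of all genes did), with a median log2 fold change of -0.11 beside 0.01 for all genes (limma). With the 10 members the list had 9 higher and 16 lower of 50. The higher count was 5 without corticotrope replicate 1, melanotrope replicate 1 or melanotrope replicate 2, and the lower count was 10 without melanotrope replicate 2. On the deposited scale the counts were 3 higher and 39 lower, where 939 and 8787 of the 13153 genes tested were.

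Npas2 and Arntl2, activators outside the pair, lay higher in both melanotrope libraries after rescaling. Npas2, the Clock paralog, was at 1.55 and 1.98 against 3.10 and 2.56 FPKM (log2 fold change 0.47, limma adjusted p = 0.0300), a call lost without corticotrope replicate 1 (0.113), melanotrope replicate 1 (0.159) or melanotrope replicate 2 (0.0509), and on the deposited scale (0.389; range 0.00358 to 0.389). Arntl2, the Arntl paralog, fell outside the naming rule and was chosen after its values were seen. It was at 0.922 and 0.655 against 1.94 and 2.00 FPKM. Arntl2 reached 1 rescaled FPKM, the expression filter, in melanotropes alone. It could not come out lower, so its test is no support, and it was not followed under the alternatives.

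Ciart and the E-box competitors were lower. Ciart, a repressor of the CLOCK and ARNTL pair, was at 3.01 and 4.81 against 1.37 and 1.03 FPKM (log2 fold change -1.14). Bhlhe40 and Bhlhe41, which compete for E-boxes, were at 46.9 and 64.7 against 24.8 and 29.0 FPKM (log2 fold change -1.01) and at 8.65 and 8.42 against 5.33 and 5.45 FPKM (-0.58). Both melanotrope libraries lay below both corticotrope libraries for each of these 3 genes, with limma adjusted p of 0.00624, 0.00549 and 0.00270. Over all genes the cell types did not overlap for 71.1%, in either direction. With no expression filter the calls of Ciart (0.0994; range 6.86e-05 to 0.0994) and Bhlhe40 (0.0927; range 6.13e-07 to 0.0927) were lost. Exons of Gm43909 on the other strand share 20.9% of the length of Bhlhe41.

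The second loop changed in part. Nr1d2, a REV-ERB receptor, was at 32.6 and 39.7 against 25.04 and 23.9 FPKM (log2 fold change -0.54, limma adjusted p = 0.0123; 0.102 with no expression filter, range 2.29e-04 to 0.102). Its paralog Nr1d1 was at 22.0 and 28.2 against 16.7 and 21.4 FPKM and did not pass the test (log2 difference -0.38, limma adjusted p = 0.112), and without corticotrope replicate 1 it did (0.0446; range 4.26e-04 to 0.377). Exons of Thra on the other strand share 9.55% of the length of Nr1d1. Rora fell, at 6.35 and 6.08 against 4.57 and 3.95 FPKM (limma adjusted p = 0.0135; 0.0802 without melanotrope replicate 2, range 5.34e-04 to 0.0802). Nfil3, the D-box repressor, overlapped between the cell types at 20.6 and 24.6 against 19.7 and 20.996 FPKM (log2 difference -0.14, limma adjusted p = 0.343).

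Among regulators of protein stability and outputs, 3 genes differed by more than 1 on the log2 scale. Of all genes 4.66% were called and at least 2-fold lower, and the share at least 2-fold higher was not computed. Fbxl21, a ubiquitin ligase subunit that acts on cryptochromes, was at 7.04 and 6.74 against 18.5 and 18.8 FPKM (log2 fold change 1.32, limma adjusted p = 1.39e-04). Usp2, a deubiquitinase with rhythmic RNA in many tissues, was at 15.9 and 14.4 against 6.07 and 5.72 FPKM (-1.23, limma adjusted p = 2.93e-04). Ccrn4l, the gene of nocturnin, was at 8.43 and 9.12 against 3.11 and 3.53 FPKM (-1.18, limma adjusted p = 4.27e-04). The libraries of the 2 cell types did not overlap for any of the 3, nor did they for 71.1% of all genes. These 3 were picked by the size of their difference, so the lack of overlap is no further support. Nampt, an enzyme of NAD synthesis that feeds SIRT1, fell from 23.0 and 23.1 to 14.9 and 14.5 FPKM (-0.61, limma adjusted p = 0.00151).

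Of 9 kinase subunits 3 fell (17.6% of all genes did) and 0 rose (19.5% of all genes did; 0 also at an unadjusted p under 0.05, limma), the lowest log2 fold change being -0.44, and the casein kinase genes Csnk1a1, Csnk1d and Csnk1e were not called. Gsk3b was at 15.3 and 14.2 against 12.2 and 12.2 FPKM (limma adjusted p = 0.0439) and the ubiquitin ligase subunit Btrc at 14.4 and 13.8 against 11.8 and 11.4 FPKM (0.0391), and each call was lost when any 1 of the 4 libraries was left out and with scaling factors from all genes (0.0616 and 0.0539) (adjusted p, range over alternatives, 0.00151 to 0.191 and 0.00148 to 0.173). The AMP kinase subunit Prkaa1 was at 11.97 and 13.4 against 9.54 and 10.3 FPKM (limma adjusted p = 0.0359), not called without corticotrope replicate 2, melanotrope replicate 1 or melanotrope replicate 2 (0.142, 0.161 and 0.0716; range 8.19e-04 to 0.161) or with those factors (0.0565). Of 11 complex and chromatin partners 1 rose and 1, Nampt, fell (19.5% and 17.6% of all genes). Nono, an RNA-binding partner of the period proteins, rose from 76.9 and 77.3 to 100.025 and 103 FPKM (limma adjusted p = 0.0103). That call was lost without corticotrope replicate 1, corticotrope replicate 2 or melanotrope replicate 2 (0.0766, 0.0712 and 0.0557; range 1.41e-04 to 0.240), and the log2 difference was -0.10 on the deposited scale.

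**Figure D4:**
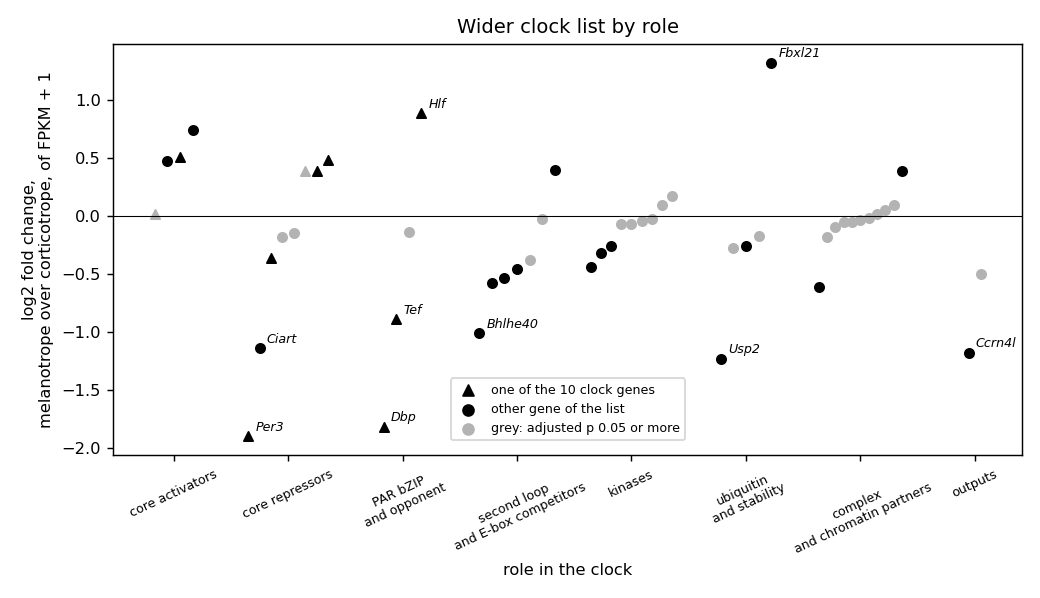
Log2 fold change of FPKM + 1, melanotrope over corticotrope, of the 50 genes of the wider clock list by role, with triangles for the 10 clock genes and grey for genes with an adjusted p of 0.05 or more. The kinases lie between -0.44 and 0.17, while Per3, Dbp, Usp2, Ccrn4l, Ciart and Bhlhe40 lie below -1.

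Genes of the inputs that act on the period genes differed between the same libraries. Of 5 glucocorticoid-induced genes 5 fell in melanotropes (17.6% of all genes did), with Fkbp5, a chaperone of the glucocorticoid receptor, at 60.6 ± 8.22 against 8.17 ± 0.772 FPKM and Zbtb16 at 6.83 ± 1.49 against 0.672 ± 0.0395 FPKM (SD, n = 2; limma adjusted p = 7.05e-05 and 2.27e-04). Zbtb16 reached 1 rescaled FPKM, the expression filter, in corticotropes alone. Zbtb16 could not come out higher, so its test is no support for that count. It was not tested without corticotrope replicate 1 or corticotrope replicate 2, which left 14 alternatives. The other glucocorticoid-induced genes reached 1 FPKM in all 4 libraries. Of 4 cyclic AMP-induced genes 2 rose (19.5% of all genes did) and 0 fell (17.6%; 0 also at an unadjusted p under 0.05, limma). Sik1, a kinase induced by cyclic AMP, was at 8.43 against 39.2 FPKM on average and the nuclear receptor Nr4a2 at 28.8 against 79.6 FPKM (limma adjusted p = 5.47e-04 and 0.00161). With no expression filter the call of Nr4a2 was lost (0.0575; range 2.75e-07 to 0.0575). Of 9 genes induced by activity or cell dissociation 3 rose and 3 fell (19.5% and 17.6% of all genes). Dusp1 and Nr4a1 were higher, at 106 against 204 and at 169 against 288 FPKM on average, and Jun and Junb lower, at 163 against 111 and at 1083 against 643 FPKM. The call of Nr4a1 was lost on the deposited scale (limma adjusted p = 0.0986) and with no expression filter (0.0652; range 1.29e-06 to 0.0986). Jun and Junb were not called without corticotrope replicate 2 (limma adjusted p = 0.0867 and 0.135) or melanotrope replicate 1 (0.0745 and 0.180), with ranges over the alternatives of 8.37e-06 to 0.113 and 3.15e-07 to 0.352. The part of these inputs in the period gene differences was not tested.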

How the data were processed

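The deposited table holds FPKM for each RefSeq transcript in each library, made by HOMER (analyzeRepeats, exons, mm10), per the file headers. Per the file headers, HOMER's getDiffExpression then gave the authors' log2 fold changes, mean log2 values, p-values and FDR. The deposited fold column was not used, because its values are not the ratio of melanotropes to corticotropes. TopHat, HOMER and edgeR are named, without versions, in the submitters' processing notes. The strand setting of the counting is not known from these sources.

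Reads behind a value were implied from FPKM times length of transcripts up to 80 bases, 100% of which were whole multiples (within 0.1) of 1 smallest unit. Reads per unit of FPKM times length were 2.00, 1.90 and 2.04 times those of corticotrope replicate 1 in the other libraries. FPKM were divided by trimmed-mean-of-M factors (1.21, 1.16, 0.870 and 0.815; unweighted, with 30% of M and 5% of A cut from either end), computed on the longest transcript of genes with at least 1 FPKM in at least 2 libraries. Genes passing the same filter after rescaling entered limma 3.58.1 under R 4.3.3 (trend, two-sided, Benjamini-Hochberg over 13036 genes, threshold 0.05) on log2(FPKM + 1) with cell type alone in the model. This scale understates the change of low genes. The code was tested on simulated data under a pair of noise models. With the prior variances false calls kept to the rate the threshold allows, and with the moderated variances they exceeded it. Adjusted p-values just under 0.05 may therefore be too small. The simulations changed far fewer genes than were called here and drew the noise of each library independently. They therefore do not give the false call rate of these data. The members, lists and settings were chosen with earlier results of these data known. Many gene sets for the scaling factors were compared with their call counts in view before this one was used, and factors from all genes were added as an alternative. Named were all members, list members past the threshold with at least 5 FPKM, 8 list genes in any case, up to 2 stimulus genes per list and direction, and Pax7, Crhr1 and Pomc. A gene of the wider list that met this rule is not reported here by name but is in the list counts. Alternatives numbered 14, and 2 were added after the values were seen. A planned comparison of protein sequences was not run. Gene coordinates come from the deposited table (mm10, counted from 1), and exon overlaps used GENCODE M21.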

Additional observations from a re-analysis of the deposited data

How the results depend on the processing

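Per3, Dbp, Tef and Hlf kept their direction and call under each of the 16 alternatives. On the deposited scale, where the median of all genes was -0.42, 1 member was higher. There 3 genes of the wider list were higher and 39 lower, where 939 and 8787 of the 13153 genes tested were. With no expression filter, which adds 11027 genes and changes the variance trend, 1 member was higher, and 3 of the wider list were higher and 7 lower, where 1579 and 1743 of all 24063 genes were. Arntl, Per1 and Cry1 lost their calls under both of these and kept them with median-of-ratios scaling, equal sums without Pomc and scaling factors from all genes. Those last factors gave 9 higher and 13 lower in the wider list, where 2662 and 2129 of the 13044 genes tested were. They put Per2 at an adjusted p of 0.0514 (limma, range 0.0125 to 0.805). Leaving out 1 library gave 3 to 4 members higher and 3 to 4 lower, and 5 to 7 higher and 10 to 14 lower in the wider list. Values that reversed were Clock (-0.44), Cry1 (-0.0734) and Nono (-0.10) on the deposited scale and Clock without corticotrope replicate 2 (-0.0429). Clock ranged from -0.0429 to 0.0728 with 1 library left out. Of 590 values of 37 named genes under the alternatives, 520 kept direction and call, 56 lost the call, 10 gained it and 4 reversed. With a replicate block the members had 5 higher and 4 lower (the wider list 11 and 20), and Per2 (adjusted p = 0.0125, limma; range 0.0125 to 0.805) and Nr1d1 (4.26e-04; range 4.26e-04 to 0.377) were called. The labels tie same-numbered libraries by nothing but the number, and their deviations correlated across genes at 0.525. Over all genes the block gave 3836 higher and 3410 lower calls. Pomc did not pass the test (adjusted p = 0.215) and passed it under 4 alternatives (range 3.48e-09 to 1). Over all genes, leaving out 1 library gave 1413 to 1861 higher and 1375 to 1627 lower. With 1 library left out, the lone sample of a cell type is assumed to vary like the other pair. FPKM were deposited to 2 decimals, so genes near 1 FPKM, such as Arntl2, carry rounding error.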
